A study of Mus musculus with 16 samples.

Results

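Atf2, Atf3, Atf4, Atf5, Atf6, Atf7, Ddit3, Xbp1, Jdp2 and Batf3 encode basic leucine zipper (bZIP) transcription factors, most of them known from stress responses. They were chosen by name as Atf2 to Atf7 together with bZIP genes that act beside them, without Atf1 or Atf6b, and make up 10 of the 21938 coding genes of the GENCODE vM21 annotation on the mouse genome build mm10. For each gene, peaks of 3 lists were collected within 3 kb of a transcription start site (TSS), called promoter peaks here, in the gene body, and within 50 kb of a TSS.

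A bZIP protein binds DNA as a dimer, through a basic region that contacts the bases and a leucine zipper that holds the pair together. In the integrated stress response, kinases that sense starvation, viral RNA, heme loss or misfolded protein phosphorylate eIF2α, which lowers general protein synthesis but raises translation of the Atf4 and Atf5 messages. ATF4 then acts on Ddit3, which encodes CHOP, and on Atf3, while the unfolded protein response of the endoplasmic reticulum uses spliced Xbp1 message and the cleaved membrane protein ATF6.

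Clear cell sarcoma is a soft tissue cancer in which a translocation joins EWSR1 to ATF1, so that the bZIP domain of ATF1 is carried by the fusion EWSR1::ATF1 (EA1). In the mouse model (mCCS), human EWSR1::ATF1 of type 1 with a V5 tag was knocked in at Rosa26 as a Cre-dependent (lox-stop-lox) allele, which also expressed eGFP through an IRES. Injection of TATCre protein into the hindlimb, in mice of mixed 129/SvJ and C57Bl/6 background, activated the fusion in whichever cells took up the enzyme. The labels give 16 tumor samples, of which 4 were V5, 4 pol2, 4 H3k27ac and 4 Input.

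All 4 groups came from tumors with the same allele, so no group lacked the fusion, and input chromatin was the only background. The V5 antibody marks EA1, RNAPOL2 marks phosphorylated RNA polymerase II, and H3K27ac marks an acetylated histone tail found at active promoters and enhancers. Each antibody was represented by 1 list of peaks with 1 score per peak. How samples were combined into a list and the scale of the score were not given in the sources used here. The methods also name more samples for V5 and RNAPOL2 than the labels do. The methods name 1 approximate sequencing depth for all libraries, but the lists carry neither values nor read counts per sample, so no replicate error, interval or test could be given, and scores were compared only within a list. Tumors are mixtures of cells, and in bulk chromatin a weak peak in all cells and a strong peak in a few cells cannot be told apart. The lists hold no expression values, so the labelled tissue was not checked against marker genes.

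Scores in the V5 list, with 10665 peaks and a median width of 710 bp, ran from 21 to 23478 (median 230). The study counts EA1 sites in more than 1 way, and its largest count exceeds the peaks of the list analysed here, so the absence of a V5 peak and every V5 percentage refer to this list alone. The RNAPOL2 list held 20375 peaks (median score 246) and the H3K27ac list 27552 peaks (median score 212). Lists were ranked by score, with rank 1 as the highest.

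The following sequences lie under the V5 peaks of 5 of the genes and are shown for the motifs they hold, of which Atf4, Atf3 and Jdp2 share the first. Capitals mark the matches, all coordinates are on GRCm38 (mm10), and each sequence is written 5′ to 3′ on the strand named. The Atf4, Atf3 and Jdp2 sequences are RefSeq (GRCm38.p6) promoter windows, from 250 bases before to 50 bases after a RefSeq start, and capitals there mark TGACG or its reverse complement CGTCA, the core of the ATF/CREB motif TGACGTCA. In the Ddit3 stretch, capitals mark ATTGCATCA, the reverse complement of the C/EBP-ATF composite TGATGCAAT, and TGACTCA, the reverse complement of the AP1 motif TGAGTCA. In the Xbp1 site, capitals mark both parts of an ER stress response element (ERSE), CCAAT and CCACG with 9 bases between. In the Atf3 intron, capitals mark TGAAGTCA, a variant of the ATF/CREB motif, and TGAGTCA.
Atf4 promoter (chr15:80254934-80255233, plus strand): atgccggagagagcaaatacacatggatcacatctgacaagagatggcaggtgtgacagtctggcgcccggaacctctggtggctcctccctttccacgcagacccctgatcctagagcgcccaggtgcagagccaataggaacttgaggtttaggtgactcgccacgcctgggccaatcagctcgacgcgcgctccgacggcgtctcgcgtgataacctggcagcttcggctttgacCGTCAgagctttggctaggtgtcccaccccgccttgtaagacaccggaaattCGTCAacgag
Atf3 promoter (chr1:191183284-191183583, minus strand): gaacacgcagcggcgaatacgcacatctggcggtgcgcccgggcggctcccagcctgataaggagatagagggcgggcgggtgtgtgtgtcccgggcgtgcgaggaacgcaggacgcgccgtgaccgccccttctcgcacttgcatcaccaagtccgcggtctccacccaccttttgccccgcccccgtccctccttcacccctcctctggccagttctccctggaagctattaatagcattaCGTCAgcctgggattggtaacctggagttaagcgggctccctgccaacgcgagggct
Jdp2 promoter (chr12:85599166-85599465, plus strand): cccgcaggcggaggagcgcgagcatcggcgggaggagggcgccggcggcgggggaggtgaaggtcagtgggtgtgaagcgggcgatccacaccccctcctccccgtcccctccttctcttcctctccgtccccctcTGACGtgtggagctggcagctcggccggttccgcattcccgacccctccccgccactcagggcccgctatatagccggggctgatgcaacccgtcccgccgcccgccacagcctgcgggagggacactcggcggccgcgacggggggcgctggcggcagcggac
Ddit3 promoter (chr10:127290482-127290781, plus strand): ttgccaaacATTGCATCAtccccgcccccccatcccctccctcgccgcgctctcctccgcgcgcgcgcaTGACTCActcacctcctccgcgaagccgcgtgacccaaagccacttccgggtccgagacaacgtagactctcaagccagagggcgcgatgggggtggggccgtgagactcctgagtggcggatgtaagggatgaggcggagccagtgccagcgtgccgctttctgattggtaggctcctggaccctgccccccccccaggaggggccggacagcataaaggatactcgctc
Xbp1 ERSE (chr11:5520906-5520924, plus strand): CCAATcgcggacggCCACG
Atf3 intron (chr1:191189971-191190090, plus strand): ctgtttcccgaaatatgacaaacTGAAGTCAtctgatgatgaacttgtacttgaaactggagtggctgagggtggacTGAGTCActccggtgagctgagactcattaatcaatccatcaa

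The V5 list held a promoter peak for Atf3, Atf4, Ddit3, Xbp1 and Jdp2, and none for Atf2, Atf5, Atf6, Atf7 or Batf3. V5 promoter peaks were thus at 5 of 10 genes, beside 16.6% of all coding genes. All 10 genes had an RNAPOL2 promoter peak (53.5% of coding genes) and all 10 had an H3K27ac promoter peak (58.6%). The 5 genes with a V5 peak therefore had peaks of all 3 lists, as did 15.9% of coding genes. Among the 11443 coding genes with promoter peaks of both RNAPOL2 and H3K27ac, 30.4% had a V5 promoter peak. The same 5 genes had a V5 peak that touched the gene body (20.0% of coding genes), and with Atf5 and Atf7 added, 7 of 10 had a V5 peak within 50 kb of a TSS (41.3%). These counts rested on peaks in the lower part of the V5 list. With only the upper 50% of each list by score, V5 promoter peaks were at 2 genes, Atf3 and Atf4 (7.30% of coding genes), and V5 peaks within 50 kb at 2 (24.4%). With only the 2000 V5 peaks of highest score, Atf4 alone had a promoter peak (3.26%), and 1 gene had a V5 peak within 50 kb (11.2%).

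The marks of transcription were on the high side for coding genes with a peak, whereas the V5 scores were not. The highest RNAPOL2 promoter score of each gene ranged from 157 to 8445 with a median of 1280, and 7 of 10 genes were above the median of 912 for coding genes with such a peak. For H3K27ac the range was 545 to 7373 with a median of 2100, and 7 of 10 genes were above the coding gene median of 863. The 5 V5 promoter scores ranged from 84 to 798 with a median of 135. Only Atf4 and Atf3 were above the coding gene median of 196.

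**Figure D1:**
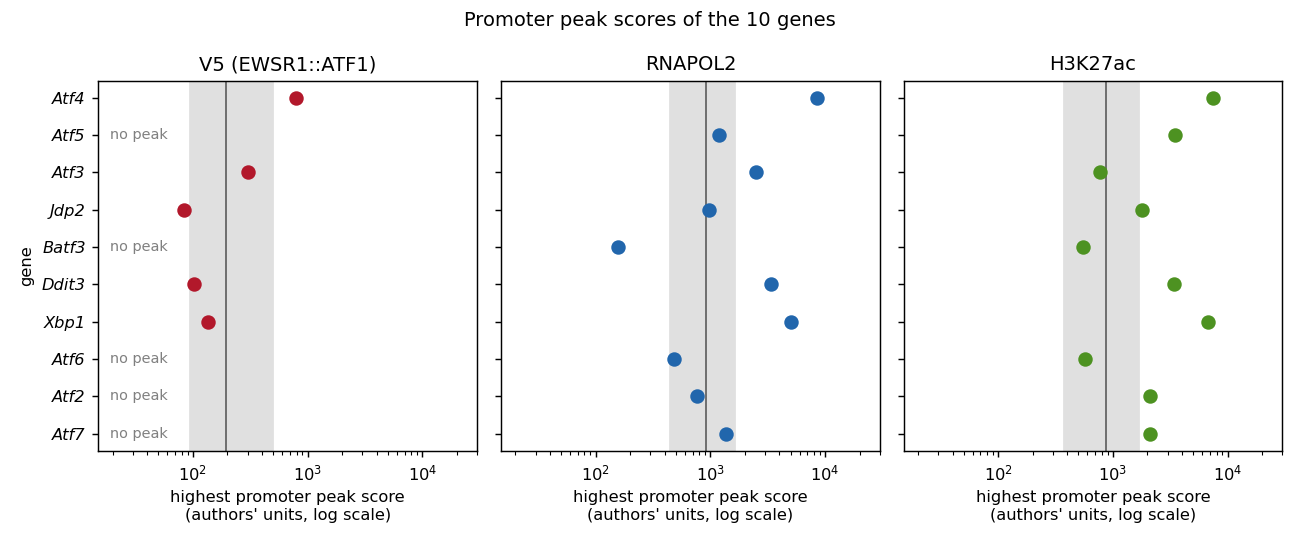
Highest promoter peak score of each gene in the V5, RNAPOL2 and H3K27ac lists, on a log axis in the authors' units; each point is 1 peak, and the grey band and line give the quartiles and median over coding genes with a promoter peak (94 to 496 and 196 for V5). Atf4 was highest of the 10 in all 3 lists, at 798, 8445 and 7373, and Batf3 was lowest for RNAPOL2 and H3K27ac, at 157 and 545.

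Atf4 encodes the central effector of the integrated stress response. The gene (ENSMUSG00000042406.8) spans chr15:80255184-80257541 on the plus strand, with 3 annotated TSSs in 2358 bp. A V5 peak of 1130 bp lay over its start (chr15:80254811-80255940), with a score of 798 that ranked 1615 of 10665 peaks, and the gene ranked 608 of the 3640 coding genes with a V5 promoter peak. The RNAPOL2 peak ran from chr15:80254241 to 80260020, with a score of 8445 that ranked 49 of 20375. It covered 100% of the gene body and continued for 2479 bp past the annotated end. The H3K27ac peak, with a score of 7373, ranked 38 of 27552 and also covered the whole gene. Atf4 thus stood near the top of both lists of active chromatin and within the upper 16.7% of coding genes with a V5 promoter peak.

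Ddit3 encodes CHOP, a partner of C/EBP proteins that is known for its part in cell death under lasting stress. The gene (ENSMUSG00000025408.15, chr10:127290774-127296288, plus strand) has 3 TSSs, and another Ddit3 record of the annotation (ENSMUSG00000116429.1) had the same promoter peaks. Its V5 peak of 610 bp (chr10:127290291-127290900) scored 103 and ranked 8478, so that 81.5% of the list was as high or higher. RNAPOL2 and H3K27ac were far higher in their own lists, with scores of 3375 (rank 594) and 3392 (rank 670). The RNAPOL2 peak was 5940 bp wide and also lay over Mbd6, a neighbor that starts within 3 kb of the same V5 peak, as do Gm4189 and Gm20492. The peaks at this shared start cannot be assigned to 1 gene. Smaller RNAPOL2 peaks with scores of 42 and 89 followed along the Ddit3 body, the latter also over Mars.

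Atf3 encodes a stress-induced factor that often acts as a repressor, and it had more V5 peaks around it than any other of the 10 genes. The gene (ENSMUSG00000026628.13) lies on the minus strand of chromosome 1 (chr1:191170296-191218039) and has an upstream TSS at 191218039 and downstream TSSs at 191183340 and 191183108. The V5 promoter peak (chr1:191182891-191183930, 1040 bp) lay over the downstream starts, with a score of 300 and rank 4223. The RNAPOL2 peak there scored 2488 (rank 1186) and the H3K27ac peak 777 (rank 6514). No peak of the 3 lists covered the upstream TSS, and the V5 list had none within 3 kb of it. The nearest RNAPOL2 and H3K27ac peaks, 1279 and 879 bp from it inside the gene, scored 127 and 518. All 3 lists thus had their higher or their only Atf3 promoter peak at the downstream starts.

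A further V5 peak lay in an Atf3 intron (chr1:191189661-191190440), 6321 bp from the nearest Atf3 TSS. Its score of 455 (rank 2813) was above the 300 of the promoter peak, and neither an RNAPOL2 nor an H3K27ac peak overlapped it. The TGAGTCA of the intron sequence printed above lay at the middle of this peak (distance of 0 bp between the middles). The peak also held 2 strings of TGA or TCA repeats, runs of more than 4 such units with gaps of at most 5 bp, which 10.2% of V5 peaks held. Of the 11 V5 peaks near the 10 genes it was the only one with such strings, as well as 1 of 2 that overlapped neither mark.

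Atf5 encodes a factor whose message is translated under stress much like that of Atf4. The gene (ENSMUSG00000038539.15, chr7:44812256-44816658, minus strand) had an RNAPOL2 promoter peak with a score of 1183 (rank 3959) and an H3K27ac peak of 5010 bp with a score of 3457 (rank 636). The nearby genes Il4i1 and Nup62 also have TSSs within 3 kb of those peaks. No V5 peak lay within 3 kb of an Atf5 TSS. The nearest was 32843 bp away at the Akt1s1 and Tbc1d17 promoters (chr7:44849501-44850140) and scored 103. The acetylation at this shared region cannot be assigned to Atf5 alone.

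Xbp1 encodes the factor that is switched on when IRE1 splices its message. The gene (ENSMUSG00000020484.18, chr11:5520659-5525893, plus strand) has 4 TSSs, and a V5 peak of 670 bp (chr11:5520591-5521260) lay over the 2 most upstream ones. That peak scored 135 and ranked 7514 of 10665. The H3K27ac peak scored 6700 (rank 55) and the RNAPOL2 peak 5064 (rank 198). Another RNAPOL2 peak, 6000 bp wide with a score of 726, covered most of the rest of the gene and ran 3977 bp past its end, over Ccdc117. As at Ddit3, a V5 peak in the lower part of its list sat in chromatin that ranked near the top for both marks.

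Atf6, whose product is cut free from the endoplasmic reticulum membrane under stress, had no V5 peak nearby. The gene (ENSMUSG00000026663.6, chr1:170704674-170867771, minus strand) spans 163098 bp and had promoter scores of 478 for RNAPOL2 (rank 7975) and 566 for H3K27ac (rank 8155). The closest V5 peak was 166 kb from a TSS, and 33.3% of coding genes were at least as far from one. It had the most H3K27ac peaks within 50 kb of the 10 genes, 10 in all, with 2 intragenic peaks scoring 126 and 150 among them.

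Jdp2 and Batf3 encode small bZIP proteins that pair with JUN proteins, JDP2 mostly as a repressor and BATF3 best known from dendritic cells. Jdp2 (ENSMUSG00000034271.16, chr12:85599027-85639878, plus strand) had the lowest V5 promoter score of the 5 genes, 84 (rank 9095), in a peak at chr12:85599011-85599690. Its RNAPOL2 score was 973 (rank 4957), its H3K27ac score was 1780 (rank 2595), and the RNAPOL2 peak was the only one within 50 kb. The long noncoding RNA Gm47863 shares the Jdp2 promoter peaks.

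Batf3 (ENSMUSG00000026630.9, chr1:191097847-191108945, plus strand) lies beside Atf3 on chromosome 1 but had no V5 peak within 50 kb. The closest one was 71.4 kb from a TSS, near the coding gene median of 75.7 kb. Batf3 had the lowest RNAPOL2 score of the 10 genes, 157, and 93.5% of coding genes with an RNAPOL2 promoter peak were as high or higher. It still had 9 H3K27ac peaks within 50 kb, with 545 at its promoter (rank 8315). The neighboring genes Atf3 and Batf3 thus held the largest and a zero count of V5 peaks among the 10 genes.

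Atf2 and Atf7 encode closely related factors that are made in most cells and activated by stress kinases, and neither had a V5 promoter peak. Atf2 (ENSMUSG00000027104.18, chr2:73816509-73892639, minus strand) scored 766 for RNAPOL2 (rank 6063) and 2085 for H3K27ac (rank 1974). It was the farthest of the 10 genes from a V5 peak, at 342 kb, and 20.1% of coding genes were at least as far. Atf7 (ENSMUSG00000099083.7, chr15:102525946-102625464, minus strand) scored 1375 for RNAPOL2 (rank 3304) and 2120 for H3K27ac (rank 1929). The overlapping coding record Gm28047 shares that Atf7 promoter. A V5 peak with a score of 59 (rank 9952) lay 10485 bp from an internal Atf7 TSS, at the start of Tarbp2 and Map3k12 beyond the end of Atf7. With no replicate error at hand, the differences between the scores of this related pair could not be judged.

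**Figure D2:**
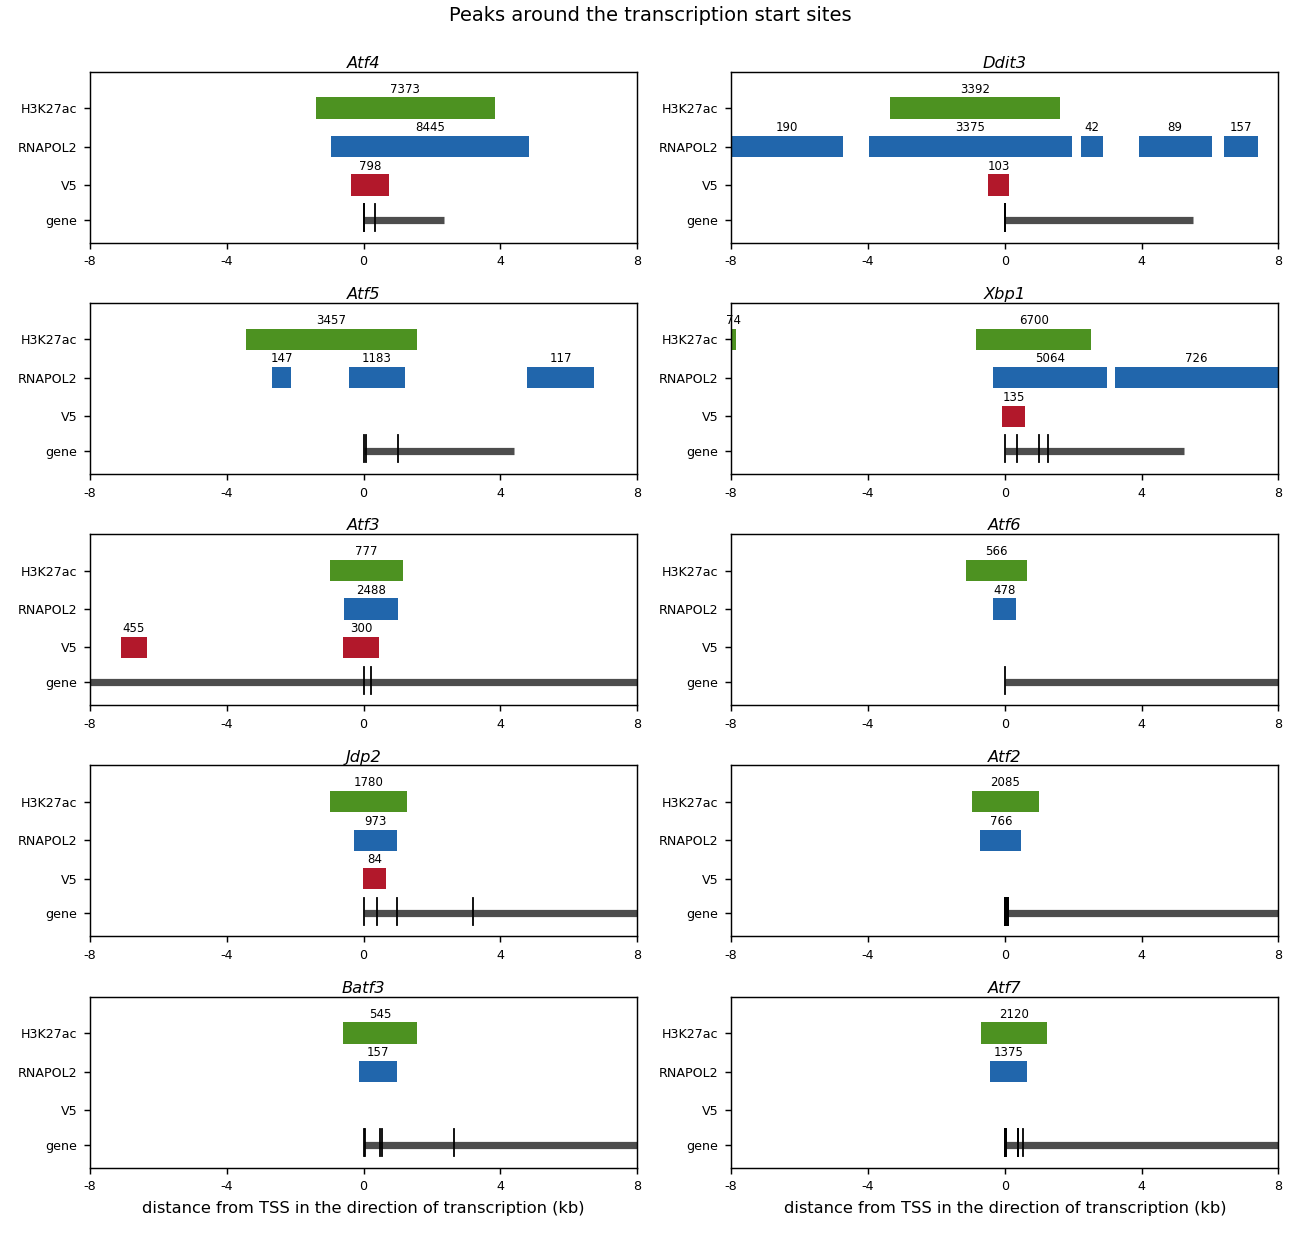
Peaks of the 3 lists within 8 kb of the most upstream TSS of each gene (for Atf3, of the downstream TSS at 191183340), with distance in kb along the direction of transcription; each bar is 1 peak labelled with its score, the dark bar is the gene and ticks are TSSs. V5 peaks covered the starts of Atf4, Ddit3, Xbp1, Atf3 and Jdp2, and the Atf4 RNAPOL2 peak ran beyond the gene's end.

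In short genes a peak at the start can cover much of the body, so the covered share was compared with genes of like length. Among the 1797 coding genes of at most 6 kb with an RNAPOL2 promoter peak, the median share of the body under RNAPOL2 peaks was 24.0% and the upper quartile 55.7%. Atf4 at 100%, Xbp1 at 95.6% and Ddit3 at 76.1% were above the upper quartile, and Atf5 at 27.2% was near the median. At Ddit3 and Xbp1 the RNAPOL2 peaks also extended over neighboring genes.

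The 11 V5 peaks within 50 kb of the genes were few beside 48 RNAPOL2 and 56 H3K27ac peaks. By gene the V5 count ran from 0 to 4 with a median of 1, where the median coding gene had 0. The RNAPOL2 count ran from 1 to 12 (median 3, coding genes 2) and the H3K27ac count from 2 to 10 (median 5.5, coding genes 2). One of the 10 genes was the nearest coding gene for 8 of the 11 V5 peaks, and the other peaks were nearest to Akt1s1, Tarbp2 and Dctn2. Ddit3 had the Dctn2 peak, 21394 bp from its TSS, with a score of 50 (rank 10180).

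Upstream of Atf3 were 2 more V5 peaks. The nearer one (chr1:191224151-191224800), 6112 bp from the upstream TSS, scored 292 and lay on the start of the noncoding gene D730003I15Rik, with RNAPOL2 and H3K27ac scores of 508 and 1489. The farther one (chr1:191242101-191242610) was 24062 bp away in intergenic sequence, scored 116 and overlapped no peak of either mark.

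Of the 11 V5 peaks, 9 overlapped an RNAPOL2 peak, beside 42.0% of all V5 peaks. The same 9 overlapped an H3K27ac peak (73.4%) and so both marks (41.6%). The exceptions were the Atf3 intron peak and the intergenic peak beyond Atf3. All of the 9 had a TSS within 3 kb, either of the gene itself or of a neighbor, and among the 3640 coding genes with a V5 promoter peak 3484 also had promoter peaks of both marks.

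**Figure D3:**
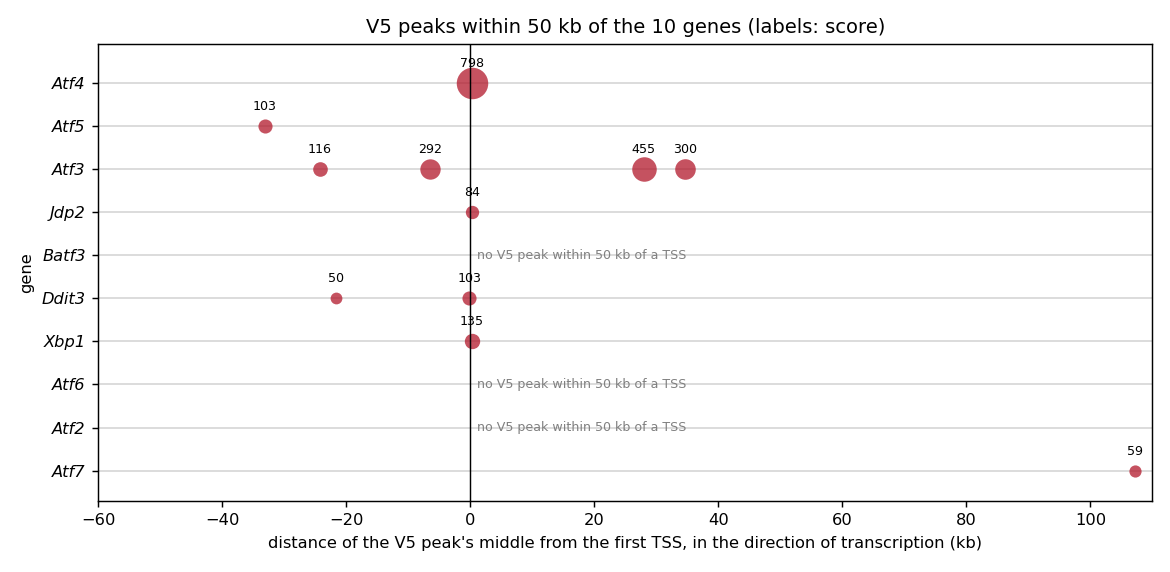
V5 peaks within 50 kb of a TSS of each gene, placed by the distance of the peak's middle from the most upstream TSS in kb along the direction of transcription, with marker area and labels giving the score. Atf3 had 4 peaks, scoring 116, 292, 455 and 300, and Batf3, Atf6 and Atf2 had none; the Atf7 peak, scoring 59, lay past the gene's end and was within 50 kb of an internal TSS only.

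V5 peaks were searched on both strands for the motifs of the printed sequences. The full palindrome TGACGTCA was in 0 of the 11 peaks, beside 8.51% of all V5 peaks. A variant TGANNTCA, other than TGACGTCA itself, was in 3 of 11 (40.3%) and TGAGTCA in 3 of 11 (26.0%). The core TGACG, which TGACGTCA and TGACGTGG contain, was in 9 of 11 (70.9%). For the 5 promoter peaks the counts were 0 for TGACGTCA, which 12.9% of V5 promoter peaks held, and 4 for TGACG (77.9%). Their GC content ran from 62.4% at Atf3 to 77.2% at Jdp2, where the median V5 promoter peak had 59.7%.

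At Atf4 the V5 peak held 4 separate TGACG cores, and it was the only 1 of the 11 with at least 4, beside 6.03% of all V5 peaks and 9.63% of V5 promoter peaks. All 4 matched on the minus strand, and 2 of them are the capitals of the Atf4 sequence, starting at −12 and 40 relative to the RefSeq start. The Atf3 core began at −7 and the Jdp2 core at −114 relative to the RefSeq starts of the printed windows. Jdp2 has further RefSeq windows, and only the printed one held TGACG. Among 32851 RefSeq promoter windows of 300 bases, 20.8% held TGACG and 1.79% held TGACGTCA.

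Ddit3 had no TGACG in its V5 peak. It held instead the composite TGATGCAAT at chr10:127290491-127290499. The form TGATGNAAT was in 5.20% of V5 peaks, 2.70% of V5 promoter peaks and 0.965% of promoter windows. The Ddit3 site lay outside the RefSeq window of Ddit3 (chr10:127290543-127290842), which held no such match. The V5 peak also had TGAGTCA, which 5.20% of promoter windows held, and TGAGGTCA, a variant of a form in 12.5% of windows. The composite is known as a site for ATF4 with C/EBP proteins at stress genes.

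Xbp1 had 1 of the 9 ERSE matches in the V5 list, which 0.0844% of V5 peaks, 0.185% of V5 promoter peaks and 0.119% of promoter windows held. Its TGACG core lay just before the ERSE, at chr11:5520890-5520894. The ERSE lay downstream of the first Xbp1 TSS, at −90 bp from the TSS at 5521005. It was past the RefSeq window of Xbp1 (chr11:5520391-5520690), which held none of these motifs. The UPR element TGACGTGG was in 0 of 11 peaks (4.56%). Of the 10 genes, 9 had RefSeq promoter windows, 12 in all, and matches of these motifs were in the windows of Atf4, Atf3, Ddit3 and Jdp2 alone.

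V5 promoter peaks were more frequent at promoters with higher RNAPOL2 and H3K27ac scores. Across quartiles of the RNAPOL2 promoter score, from low to high, the share of coding genes with a V5 promoter peak was 14.1%, 22.5%, 31.2% and 50.7%. Atf3, Atf4, Ddit3 and Xbp1 were in the highest quartile, and all 4 had a V5 peak. Of Atf5, Atf7 and Jdp2 in the next quartile, Jdp2 had one, and Atf2, Atf6 and Batf3 in the lower quartiles had none. By quartile, the 10 genes thus ran with coding genes at large. Within its quartile Jdp2, at 973, scored below Atf7 (1375) and Atf5 (1183), which had no V5 promoter peak.

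For H3K27ac the corresponding shares were 9.49%, 18.0%, 32.0% and 52.5%. Here 7 of the 10 genes were in the highest quartile, among them Atf2, Atf5 and Atf7, which had no V5 peak, while Atf3 had one from the quartile with 18.0%. The 5 genes with a V5 promoter peak had a median H3K27ac score of 3390 (777 to 7373) and the 5 without had 2080 (545 to 3457), so the groups overlapped. For RNAPOL2 the medians were 3380 (973 to 8445) and 766 (157 to 1375), and these overlapped through Jdp2.

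Other genes of the same pathways were taken from 4 lists with 96 genes in all. Of the 42 other bZIP genes, 24 had a V5 promoter peak (57.1%), beside 16.6% of coding genes. The median score of the 24 was 260, beside 196 over all coding genes with such a peak. The highest were the cAMP-responsive factor Crem at 19716 (rank 2), its relative Creb1 at 3795 (rank 141) and the repressor Nfil3 at 2767 (rank 265). Each was above the 798 of Atf4. The bZIP genes nearest to Atf4 in V5 score were the AP1 genes Fosl2 at 523, Fos at 1149 and Junb at 428.

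Among stress sensors and regulators, 3 of 10 had a V5 promoter peak (30.0%), beside 16.6% of coding genes and 30.4% of those with both marks. The 3 were Ppp1r15a, the inducible subunit of the eIF2α phosphatase, at 625, its constitutive relative Ppp1r15b at 88, and the endoplasmic reticulum kinase gene Eif2ak3 at 59. All 10 had RNAPOL2 and H3K27ac promoter peaks (53.5% and 58.6% of coding genes), as the 10 bZIP genes did.

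Targets of ATF4 and CHOP had V5 promoter peaks in 5 of 23 cases (21.7%), not far from the 16.6% of coding genes. The highest were Psph, for serine synthesis, at 482, and the amino acid transporters Slc7a5 at 215 and Slc7a1 at 184. In this list 16 genes had an RNAPOL2 promoter peak (69.6%, beside 53.5% of coding genes) and 19 an H3K27ac promoter peak (82.6%, beside 58.6%).

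Targets of the unfolded protein response had V5 promoter peaks in 10 of 21 cases (47.6%). The share was 16.6% of coding genes, and 30.4% of those with promoter peaks of both marks. The highest were the chaperone gene Dnajb11 at 1074, the secreted stress factor Manf at 825 and the main endoplasmic reticulum chaperone Hspa5 at 300. All 21 had an RNAPOL2 promoter peak (53.5% of coding genes) and 20 an H3K27ac promoter peak (58.6%). No test compared these lists with each other or with coding genes.

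**Figure D4:**
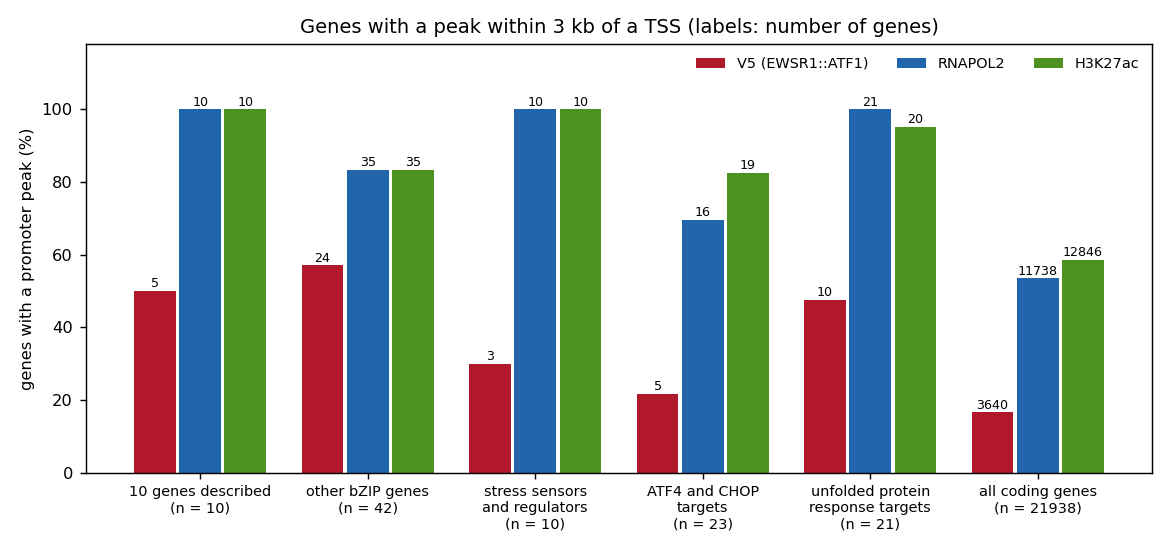
Percentage of genes with a promoter peak in each of the 3 lists, for the 10 genes, 4 pathway lists and all coding genes, with bars from 0 and labels giving the number of genes. V5 promoter peaks were at 5 of 10 genes, 24 of 42 other bZIP genes, 3 of 10 stress sensors and regulators, 5 of 23 ATF4 and CHOP targets, 10 of 21 unfolded protein response targets and 3640 of 21938 coding genes.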

How the data were processed

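Chromatin of mCCS tumors was examined by ChIP-seq. Per the labels and the methods, the authors aligned reads to mm10 with BWA and called peaks with MACS2 against input, with the broad option for H3K27ac, removed duplicate reads with samtools rmdup and dropped denylisted regions. The submitters' processing notes name BWA 0.7.10-r789 and MACS2 2.2.6. The deposited lists give 1 score per peak, whose scale and pooling over samples were not given in the sources used here. Each score column was read as the authors' value.

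Peaks were joined to GENCODE vM21 genes and RefSeq promoters on GRCm38. Promoter windows reached 3 kb either side of every TSS, and peaks overlapped when they shared at least 1 bp. Motifs were matched as exact strings. No test was run, since each antibody has 1 list, and counts are given beside the percentage over all coding genes or all V5 peaks. The overlap and motif functions were tested on simulated data. Alternatives changed the window, the TSSs, the overlap, the score minimum and the motif.

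The 10 genes, the 4 lists and the motifs were chosen with earlier results of these data known. Named genes were the 10 genes, and from each list the 3 with the highest V5 promoter score, plus the 3 other bZIP genes nearest to the V5 score of Atf4. Named peaks were every V5 peak in a promoter or body, the highest V5 peak within 50 kb, and the highest RNAPOL2 and H3K27ac promoter peaks. Lesser peaks, and neighboring genes that share a peak, were named after their values were seen. Python 3.11.15, numpy 2.4.6, pandas 2.3.3, pysam 0.24.0 and matplotlib 3.10.9 were used.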

Additional observations from a re-analysis of the deposited data

How the results depend on the processing

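Of 38 alternative values, 27 stayed close to the reported count, 11 moved further and 0 changed direction. Values called close include 5 genes in place of 7 with a V5 peak within 50 kb, when the gene had to be the nearest coding gene. They also include RNAPOL2 promoter peaks at 9 genes in place of 10 (upper 50% by score) and V5 body peaks at 4 in place of 5 (middle base). Windows of 1 kb and 5 kb and a peak's middle base in place of any overlap left the same 5 genes with a V5 promoter peak. The score minimum moved the counts most. With the upper 50% of each list by score, V5 promoter peaks remained at 2 genes (Atf3 and Atf4, beside 7.30% of coding genes), peaks of all 3 lists at 2 (6.39%), body peaks at 2 (10.4%) and V5 peaks within 50 kb at 2 (24.4%), while of the 4 V5 peaks near the genes that were left, 3 overlapped H3K27ac and 3 overlapped RNAPOL2, beside 9 of 11 in the whole list. With the 2000 V5 peaks of highest score each of the first 4 counts was 1, at Atf4 for the promoter, beside 3.26%, 3.12%, 4.78% and 11.2% of coding genes. Fewer peaks enter both alternatives by construction. Counting any TGANNTCA moved the 0 V5 peaks with TGACGTCA to 3.

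No paired analysis was possible because each antibody has 1 peak list with no values per sample, and for the same reason no replicate was left out. The lists carry no read counts, so a missing peak says only that none was listed.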
